A study of Mus musculus with 2 samples.

Results

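The regions described here are distal DNase I hypersensitive sites (DHSs) of the mouse cerebral cortex that lie in dense runs along the genome. A region was a stretch of merged peaks that held a peak of both libraries, and it was distal when its midpoint lay over 1 kb from any annotated transcription start site (TSS). Distal regions whose midpoints were at most 5 kb apart were chained, and the members are the regions in chains of 6 or more. The members were thus chosen by the presence and position of peaks in both libraries, values that come from the same data. The rule gave 449 members in 63 chains, out of 52908 shared distal regions (0.849%) and 78165 shared regions in all. Another 18146 distal regions lay in chains of 2 to 5, and 34313 had no other distal region within 5 kb and are called single.

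DNase-seq was done on cerebral cortex, left side, from 2 mice of the B6CASTF1/J strain, both female and aged 14 days, the first-generation offspring of C57BL/6J and CAST/EiJ. The mice are replicates 1 and 2, with 1 library each; the labels number the animals separately but file both under a single donor record. No treatment or second genotype was part of the design, so the libraries form a single group and no test between groups was possible. Values are given per library, or as mean ± SD over n = 2 libraries, and the SD covers the spread between these libraries, which may be partly technical. The tissue was used whole, so a stronger site may be open in more cells or more open per cell, and these cannot be told apart.

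DNase I cuts DNA where nucleosomes have given way to bound proteins, and the released ends mark promoters, enhancers and insulators. Footprints are short stretches inside such a site that are cut less than their surroundings because a protein covers them. Runs of neighbouring distal sites occur at genes under dense regulation, at arrays of binding sites for architectural proteins such as CTCF, and at clusters of genes transcribed by RNA polymerase III, among them the tRNA genes.

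The authors' larger peak lists held 90059 peaks in replicate 1 and 175597 in replicate 2, with 199455 and 416840 footprints. The deposited peak signal is a height whose scaling is not stated. All peaks lay within 0.1 of a whole multiple of a fixed step, 0.00771 in replicate 1 and 0.00498 in replicate 2. The median member stood at 124 steps in replicate 1 and 207 in replicate 2. What a step stands for is not stated either, so the read depth behind a value is unknown. Tissue identity was checked on promoters, where 62.4% of all protein-coding genes had a shared region. Such a region was found for 12 of 12 pan-neuronal, 12 of 12 glutamate receptor, 13 of 13 activity-regulated and 13 of 13 housekeeping genes. The lists of other brain cells had 9 of 16 genes for GABAergic interneurons, 10 of 13 for astrocytes, 6 of 13 for the oligodendrocyte lineage, 5 of 12 for microglia and 2 of 11 for endothelial and mural cells. Among lists of other tissues the counts were 1 of 12 for liver, 1 of 12 for blood, 5 of 12 for muscle and 0 of 14 for hindbrain and spinal cord patterning.

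Most chains were short. Chains of exactly 6 numbered 40, chains of 7 numbered 10 and chains of 8 numbered 6, and the remaining 7 held 9, 10, 12, 13, 13, 16 and 18 members. The median span was 9080 bp, from 3240 to 32680 bp, and all spans together covered 640.9 kb. Of the 386 gaps between neighbouring midpoints, 191 were under 1 kb, the median was 1015 bp (quartiles 570 and 2470 bp), and 31 were over 4 kb and so close to the chaining limit. Members took up a median of 20.5% of their span. At the limit on size, the median signal of the 240 regions in chains of exactly 6 was 0.863 in replicate 1 and 0.976 in replicate 2, and the 515 regions in chains of exactly 5 had 0.840 and 0.916.

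Chains occurred on 19 chromosomes, with the most, 6 each, on chromosomes 5 and 11. The midpoint of 26 chains lay in a protein-coding gene and that of 33 in no annotated gene of any type. A protein-coding TSS lay within 10 kb of 28 chains, and 9 chains were over 50 kb from any. Between their distal members, 18 chains also held promoter regions, 59 in all. Although distal by the rule, members lay nearer to a TSS than single regions did, with median distances of 5327 and 13575 bp.

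The sequence of the highest member of each of the 5 largest chains is shown, since these regions lead the loci described next. Sequences are the RefSeq GRCm38.p6 assembly (mm10), 5′ to 3′, with coordinates counted from 1. Capitals mark matches to the searched motifs, given with the motif results; the Firre and Nfic members hold none.
Firre member 7, chrX:50602981-50603180, forward strand: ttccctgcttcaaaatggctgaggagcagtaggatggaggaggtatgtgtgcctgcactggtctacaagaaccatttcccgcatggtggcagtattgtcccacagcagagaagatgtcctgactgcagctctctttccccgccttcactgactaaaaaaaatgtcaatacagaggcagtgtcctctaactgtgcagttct
Mid1 member 15, chrX:169998041-169998240, forward strand: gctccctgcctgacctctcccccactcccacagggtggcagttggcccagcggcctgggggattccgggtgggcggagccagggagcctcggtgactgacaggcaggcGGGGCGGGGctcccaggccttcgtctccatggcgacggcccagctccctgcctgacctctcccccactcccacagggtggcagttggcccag
Nfic member 8, chr10:81432961-81433180, forward strand: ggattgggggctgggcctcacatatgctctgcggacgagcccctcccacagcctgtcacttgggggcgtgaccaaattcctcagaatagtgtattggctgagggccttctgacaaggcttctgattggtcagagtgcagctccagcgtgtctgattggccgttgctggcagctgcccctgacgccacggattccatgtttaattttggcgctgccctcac
Ulk4 member 2, chr9:121240381-121240580, forward strand: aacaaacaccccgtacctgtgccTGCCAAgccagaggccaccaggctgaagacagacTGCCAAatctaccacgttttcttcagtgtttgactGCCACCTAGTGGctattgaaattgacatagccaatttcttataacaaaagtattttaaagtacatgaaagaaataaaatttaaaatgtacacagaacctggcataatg
Kdm6b member 5, chr11:69411181-69411400, forward strand: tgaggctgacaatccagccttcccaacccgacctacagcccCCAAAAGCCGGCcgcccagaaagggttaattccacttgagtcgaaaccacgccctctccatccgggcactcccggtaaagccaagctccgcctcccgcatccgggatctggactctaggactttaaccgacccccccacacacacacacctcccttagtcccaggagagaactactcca

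The largest chain lay in introns of Firre, an X-linked gene for a long noncoding RNA known for its repeated RNA domain. Its 18 members spanned 32680 bp at chrX:50590761-50623440, and the nearest protein-coding TSS, that of the olfactory receptor gene Olfr1324, was 178548 bp away. The median member had a signal of 2.40 in replicate 1 and 2.67 in replicate 2. The lowest were 0.663 and 1.01 and the highest 5.56 and 7.69, so every member lay above the single regions' medians of 0.616 and 0.697. All 18 members held a footprint in both libraries, 56 footprints in replicate 1 and 71 in replicate 2. Relative to all distal regions, 16 of 18 members were higher in replicate 2, with a median centred log2 ratio of 0.19.

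Members of the Firre chain shared sequence with each other. A median of 46.9% of the 15-base stretches of a member occurred again in another member of the chain, the only chain of 63 with a median above 10%, and 58 chains had a median of 0. By the stretches of 31 bases that recur anywhere in the genome, 3 of the 18 members consisted for over 50% of repeated sequence. Reads from such stretches may map to more than 1 place, and the authors' treatment of them is not stated.

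The 8-base stretch held by the most members of the Firre chain was TACTGCCA, present in 15 of 18 members. It was found by searching this chain after its values were seen. It occurred in 1.54% of all distal regions (816) on either strand, and in 2 members of all other chains. The 15 copies are shown with 11 bases on either side because their strand and flanks differ along the chain. Capitals mark the stretch, and copies on the reverse strand are printed as their reverse complement.
Firre member 1, chrX:50590844-50590873, forward strand: ttgtggagctcTACTGCCAccatgaggatg
Firre member 3, chrX:50597290-50597319, forward strand: gtgtggagctcTACTGCCAccctcaggcca
Firre member 4, chrX:50599909-50599938, forward strand: gtgtagagctcTACTGCCAccattaggacg
Firre member 5, chrX:50600428-50600457, reverse strand: ctgtgggacaaTACTGCCAtcatgcggcaa
Firre member 6, chrX:50602531-50602560, forward strand: gtgtggagctcTACTGCCAccatgaggaca
Firre member 7, chrX:50603056-50603085, reverse strand: ctgtgggacaaTACTGCCAccatgcgggaa
Firre member 8, chrX:50605165-50605194, forward strand: gtgtggagctcTACTGCCAccatgaggaca
Firre member 9, chrX:50605690-50605719, reverse strand: ctgtgggacaaTACTGCCAccatgcgggaa
Firre member 12, chrX:50612383-50612412, reverse strand: ctctgggacaaTACTGCCAtcatgcggaaa
Firre member 13, chrX:50614518-50614547, forward strand: gtgtagagctcTACTGCCAccatgaggaca
Firre member 14, chrX:50615043-50615072, reverse strand: ctgtgggacaaTACTGCCAccatgcgggaa
Firre member 15, chrX:50617152-50617181, forward strand: gtgtggagctcTACTGCCAccatgaggaca
Firre member 16, chrX:50620137-50620166, forward strand: atctggagcccTACTGCCAccacgcggcca
Firre member 17, chrX:50621105-50621134, reverse strand: acctggaacgtTACTGCCAtcttgcggaag
Firre member 18, chrX:50623314-50623343, reverse strand: agatggagcacTACTGCCAtcgtgaggatg

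All 15 copies touched a footprint in both libraries. Of all windows of 8 bases in the Firre members, 37.1% touched a footprint in replicate 1 and 47.9% in replicate 2. The copies fell into 2 forms by their flanks. Of the 8 copies on the forward strand, 7 followed the letters gagctc, and 5 of the 7 on the reverse strand followed gggacaa. No member held a copy on both strands.

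The signal of the member went with the form of its copy, and with the strand only in part. In replicate 1 the 8 forward-strand members ran from 1.28 to 3.15 with a median of 1.85, and the 7 reverse-strand members from 1.46 to 5.56 with a median of 3.29. In replicate 2 the medians were 2.01 (1.53 to 3.29) and 4.00 (1.72 to 7.69). The ranges by strand overlapped in both libraries. Those of the forms did not: the 7 gagctc copies ran from 1.28 to 2.78 in replicate 1 and from 1.53 to 2.68 in replicate 2. The 5 gggacaa copies ran from 3.06 to 5.56 and from 3.63 to 7.69. Members 17 and 18, on the reverse strand without gggacaa, had 1.46 and 2.17 in replicate 1 and 1.72 and 1.81 in replicate 2. Member 16, on the forward strand without gagctc, had 3.15 and 3.29. The forms were compared after the values were seen. Members share sequence, so they are not independent of each other. Part of the chain was a run of close pairs: 5 gaps were of 500 to 530 bp, and the pairs followed each other at 2600 to 6710 bp, with a median of 2645 bp. In all 5 pairs, and in both libraries, the member with the higher coordinate had the higher signal, and that member held a reverse-strand copy. Members 6 and 7 gave 1.28 and 5.56 in replicate 1 and 1.53 and 7.69 in replicate 2, and members 13 and 14 gave 1.86 and 3.06 in replicate 1 and 2.03 and 4.00 in replicate 2.

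**Figure D1:**
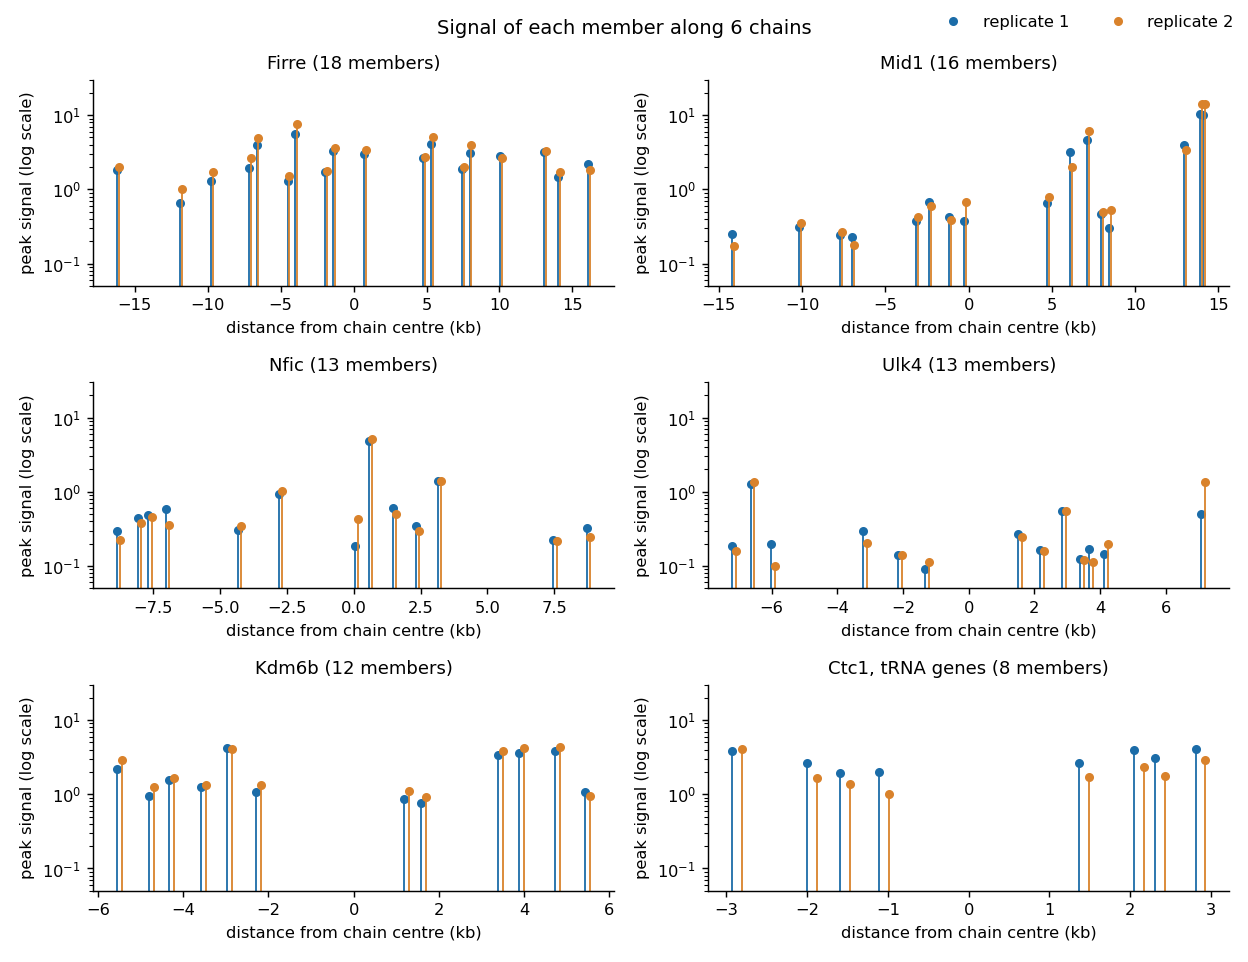
Peak signal of each member (log axis) against its distance in kb from the centre of its chain, for 6 chains, with replicate 1 in blue and replicate 2 in orange, drawn slightly apart. Firre members alternate between lower and higher signals, Mid1 and Nfic have a few high members among low ones, Ulk4 is low apart from single members, and at Ctc1 7 of 8 members are lower in replicate 2.

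The chain in Mid1, a ubiquitin ligase gene whose 3′ part lies in the pseudoautosomal region of C57BL/6, held 16 members at chrX:169969882-169998420. Its members were uneven. The highest, member 15, had signals of 10.3 and 14.3 and its neighbour, member 16, had 10.2 and 14.2, while the median member had 0.443 and 0.565. Both were wholly repeated sequence. Of the 15-base stretches of member 15, 84.4% occurred again in another member of the chain, so its signal may not be separate from theirs. Over 50% of the sequence was repeated elsewhere in the mm10 assembly in 13 of the 16, and 11 promoter regions lay inside the span. The count took in chromosome Y, which these female mice lack. A pseudoautosomal copy on Y would thus count as a repeat, and such copies were not told apart from others. Peaks of a single library were frequent there, 7 of replicate 1 and 11 of replicate 2, and of the spacer DNA, which is the DNA 250 to 1500 bp from a midpoint and outside all peaks, 29.7% and 39.8% lay in low-FDR segments, described below.

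Nfic, which encodes a nuclear factor I transcription factor, held 13 members in introns at chr10:81423456-81441320. Member 8 reached 4.78 in replicate 1 and 5.19 in replicate 2, 10.9 and 13.5 times the chain's median of 0.439 and 0.383. Ulk4, which encodes a pseudokinase of the ULK family, held 13 intronic members at chr9:121239581-121254300, with medians of 0.185 and 0.159. Only 5 and 6 of its 13 members held a footprint, and the highest, member 2, had 1.26 and 1.37. These chains therefore met the rule through many low peaks around few high ones.

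Kdm6b, the gene of a histone H3K27 demethylase, had a chain of 12 at chr11:69408581-69419860, with its midpoint 541 bp from the TSS. Signals ran from 0.755 to 4.26 in replicate 1 and from 0.916 to 4.29 in replicate 2, with medians of 1.41 and 1.50. Members 5, 9, 10 and 11 were the high ones in both libraries. Rasgef1a, which encodes a guanine nucleotide exchange factor of Ras-family proteins, had 10 members within a narrow range, 0.524 to 1.35 in replicate 1 and 0.468 to 1.85 in replicate 2. The chain of 9 at chr12:113216001-113223080 lay 33611 bp from the TSS of Tmem121, with no gene at its midpoint and medians of 0.879 and 0.926.

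The other chains of 8 or the highest-ranked of 7 lay near Ctc1, Coro2b, Ezh2, Olfr1423, Dhx37, Rprml, Shf and Lrrc74a; their medians ran from 0.512 to 2.88 in replicate 1 and from 0.540 to 2.37 in replicate 2. The chain nearest Ezh2, which encodes an H3K27 methyltransferase, was 54764 bp from its TSS and uneven, with a highest member of 8.13 and 5.36 and medians of 0.512 and 0.540. The 3 longest spans were those of Firre and Mid1 and the 18408 bp of 7 members nearest Arl4c, a small GTPase gene. The 3 chains with the highest median of the mean signal lay near Bahcc1, at 2.83 and 2.97, Lrrc74a, at 2.37 and 2.37, and Sfi1, at 2.37 and 2.84. The lowest medians were 0.116 and 0.154, 3618 bp from the TSS of Apba2.

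Clustered regions had higher signals than single ones in both libraries. The median was 0.956 in replicate 1 and 1.03 in replicate 2 (0.993 ± 0.053, SD, n = 2) for members, 0.732 and 0.821 for chains of 2 to 5, and 0.616 and 0.697 (0.657 ± 0.057) for single regions. Members over single regions came to 1.55-fold and 1.48-fold (1.51 ± 0.051), a difference larger than the spread between the libraries. Of the 63 chains, 48 had a median above that of single regions in both libraries. The rule required a peak in both libraries, so these levels are a description of the regions it picked, and on the peaks of replicate 1 alone the log2 difference was 0.13 against 0.60 with both.

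A peak of the stricter list was present in both libraries in 298 members (66.4%), against 54.0% of all distal regions. Per library the share was 69.0% in replicate 1 and 86.0% in replicate 2 for members, and 54.6% and 87.1% for single regions. The excess was thus seen in replicate 1 and not in replicate 2.

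**Figure D2:**
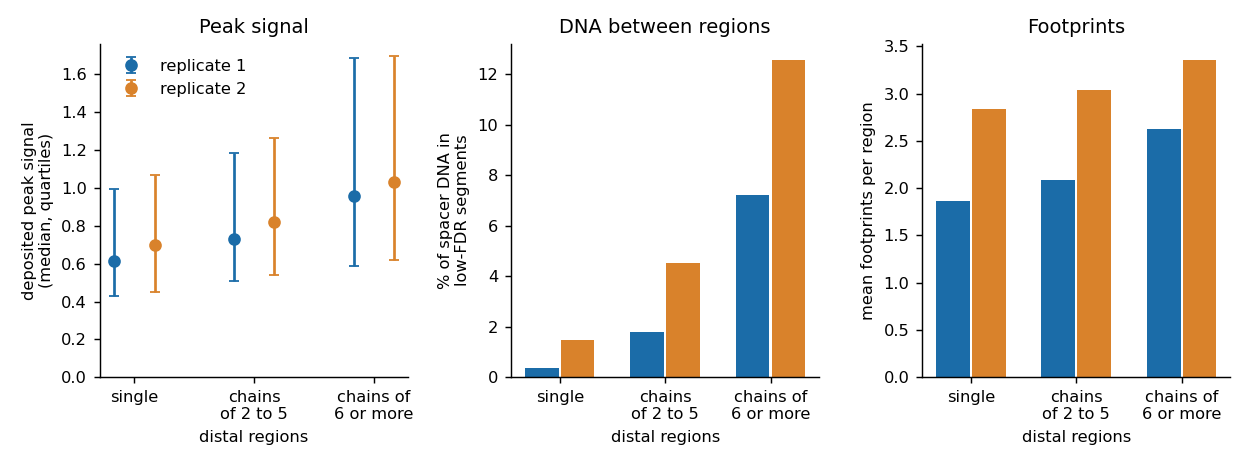
Deposited peak signal (points are medians, bars the quartiles over regions), percent of spacer DNA in low-FDR segments and mean footprints per region (bars), for 34313 single regions, 18146 in chains of 2 to 5 and 449 in chains of 6 or more, with replicate 1 in blue and replicate 2 in orange. All 3 measures step up from single regions to long chains in both libraries, and the quartiles of signal overlap between classes.

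The DNA beside clustered regions was more often called accessible as well. The authors deposited segments with a false discovery rate (FDR) of the cleavage rate of at most 0.05, called low-FDR segments here, which covered 25488241 bp in replicate 1 and 51126901 bp in replicate 2. Of the spacer DNA of members, 7.21% in replicate 1 and 12.6% in replicate 2 lay in such segments. For single regions the shares were 0.372% and 1.48%, and for chains of 2 to 5 they were 1.81% and 4.52%. The share exceeded that of single regions in 61 of 63 chains in each library, with a median over chains of 5.45% and 10.5%. It was 7.76% and 13.3% at Firre. The ratio of the shares, members over single regions, averaged 14.0 over the libraries, and it was 7.75 with the same number of peaks taken from each library and 8.80 with the stricter list. By the rule members have a distal neighbour within 5 kb and single regions none, so part of this difference may be set in advance. How large that part is was not tested. The spacer also took in the outer flanks of end members and the flanks of promoter regions in the spans.

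Members held more footprints per region in both libraries, and more per base in replicate 1 only. The mean was 2.63 in replicate 1 and 3.36 in replicate 2 (2.99 ± 0.51), against 1.86 and 2.84 (2.35 ± 0.69) in single regions, a difference of 0.65 ± 0.18 between members and single regions. Members were also wider, with a median of 249 against 220 bp. Per 100 bp they had 0.862 and 1.10 footprints against 0.776 and 1.18, so the order turned between the libraries. A footprint was present in both libraries in 364 members (81.1%), next to 80.3% of all distal regions.

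Footprints rise with signal, and part of the difference went with it. Single regions weighted to the members' signal had 2.35 and 3.16 footprints, which left 0.24 of the mean difference. They were also narrower, with a mean width of 236 bp against 305 bp in members, so the 0.24 is not an excess per base. In the highest of 10 bins of mean signal, the 110 members had 4.00 and 4.67 footprints and the 2897 single regions 3.43 and 3.80. In the lowest bin the order was the opposite, with 0.421 and 1.05 in 38 members and 0.570 and 1.36 in 4219 single regions. In replicate 2 members had fewer than single regions in 6 of the 7 lowest bins.

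**Figure D3:**
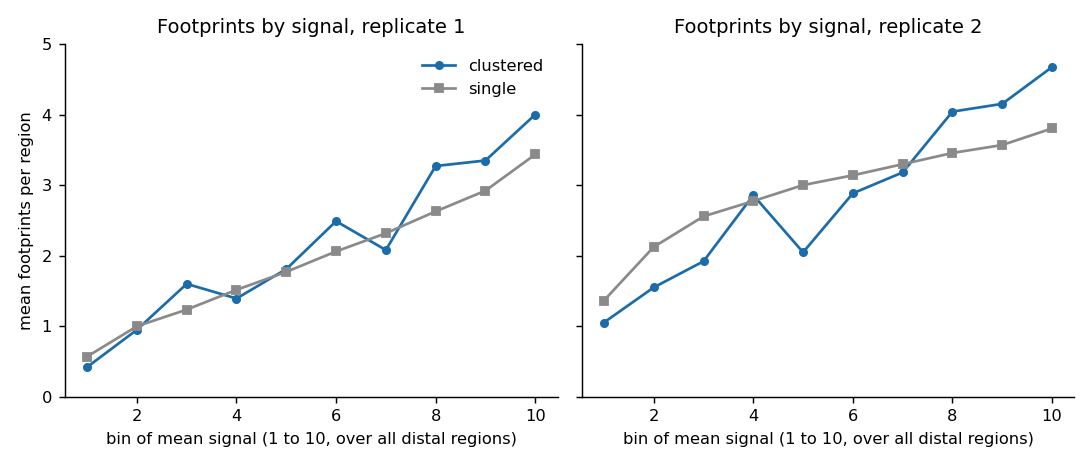
Mean footprints per region against the bin of mean signal (10 bins over all distal regions), for clustered (blue circles) and single (grey squares) regions in each library. Clustered regions lie above single ones in the 3 highest bins of both libraries and below them in the lowest bin.

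Members were richer in G and C than single regions, as were regions just outside the rule. Their median GC content was 53.3%, next to 53.5% in chains of exactly 5, 50.7% in chains of 2 to 5 and 48.8% in single regions, and the ratio of observed to expected CpG was 0.352 in members and 0.243 in single regions. The median GC of 56 of 63 chains was above that of single regions. Introns held 44.3% of members (95% Wilson interval 39.8 to 48.9) and 49.0% of single regions (48.5 to 49.5), exons 7.57% and 5.43%, and intergenic DNA 48.1% and 45.6%. Members of a chain share a locus and are not independent, and the intron difference changed sign under other settings of the rule.

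Signals were alike within a chain only in part. The intraclass correlation of log2 signal, the share of the variance that lies between chains, was 0.397 in replicate 1 and 0.389 in replicate 2 (0.393 ± 0.006), and 0.266 and 0.268 in chains of 2 to 5. Within chains the SD of log2 signal was still 0.93 and 0.94. The highest member stood over 2-fold above the chain's median in 35 chains in replicate 1 and 38 in replicate 2, and in 39 chains the same region was highest in both. End members (126), with medians of 0.975 and 1.07, and inner members (323), with 0.932 and 1.03, were close in both libraries.

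The libraries differed little at clustered regions. The log2 ratio of replicate 2 over replicate 1 was centred on the median of all distal regions, which removed 0.03. Its SD was 0.46 over members, 0.53 over regions in chains of 2 to 5 and 0.56 over single regions. Past 2-fold lay 14 members (3.12%), 5 higher in replicate 1 and 9 higher in replicate 2. The share was 5.08% in chains of 2 to 5 and 6.20% in all distal regions. Signals were also higher in members, and the part of signal height in these spreads was not tested. The intraclass correlation of the ratio was 0.188, next to 0.168 in chains of 2 to 5. Without the 7 chains of tRNA genes or repeated sequence it was 0.097, below that of the short chains, from which no such regions were left out. In 6 chains all members lay on the same side of 0, 4 lower and 2 higher in replicate 2.

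The highest median ratios were 0.57 near Srrm4, a neuronal splicing regulator gene, 0.44 near Rprml and 0.43 near Unc5cl. All 6 intronic members of Srrm4 were higher in replicate 2, with signals of 0.470 to 1.94 in replicate 1 and 0.612 to 3.32 in replicate 2. The lowest were -0.84 near Dhx37, -0.68 near Ctc1 and -0.45 in Gm44511. The chains near Dhx37 and Ctc1 lie on tRNA genes, described next, and the 6 members in Gm44511 overlapped none.

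Part of the clustered regions coincided with tRNA genes, which GENCODE does not list among its TSSs and which therefore counted as distal. RefSeq places 403 tRNA genes on the chromosomes used, and 26 members (5.79%) overlapped 27 of them, against 0.304% of all distal regions and 0.0845% of single ones. Overlap was not particular to the long chains: 106 of the 161 distal regions on tRNA genes lay in chains of 2 to 5, and the share was 3.11% in chains of exactly 5 and 2.08% in chains of exactly 6. The 26 members lay in 5 chains, with 7 of 8 members near Ctc1, 6 of 8 near Olfr1423, 5 of 8 near Dhx37, 5 of 6 near Hfe2 and 3 of 7 near Shf. This grouping was made after the values were seen. For these regions the name distal does not hold in the sense of a promoter-free site, since a tRNA gene carries its promoter inside its transcribed part.

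The 7 tRNA genes near Ctc1 (chr11:69035961-69041920) were 1 each for Asp, Gly, Ile, Pro, Ser, Thr and Trp. Near Dhx37 (chr5:125404141-125412240) were 2 for Ala, 2 for Asp and 1 for Phe, and near Shf (chr2:122375501-122381300) 3 for His. The B box, an internal promoter element bound by the factor TFIIIC, was searched as GGTTCGANNCC after the tRNA overlap was seen. It occurred in 20 members, 4.45% against 0.221% of all distal regions, and all 20 overlapped a tRNA gene. Its copies near Ctc1 and Dhx37 are shown, in the direction of the match, with the B box in capitals.
Ctc1 member 2, chr11:69037046-69037075, forward strand: aaggtcgcgGGTTCGATCCCcgtacgggcc
Ctc1 member 3, chr11:69037528-69037557, forward strand: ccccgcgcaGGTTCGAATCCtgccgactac
Ctc1 member 4, chr11:69037896-69037925, forward strand: gagatcctgGGTTCGAATCCcagcggtgcc
Ctc1 member 6, chr11:69041025-69041054, forward strand: ggagaccggGGTTCGATTCCccgacgggga
Ctc1 member 7, chr11:69041279-69041308, reverse strand: gttgacccgGGTTCGATTCCcggccaacgc
Dhx37 member 1, chr5:125404251-125404280, reverse strand: gaggccccgGGTTCGATCCCcggcatctcc
Dhx37 member 3, chr5:125405608-125405637, reverse strand: ggagaccggGGTTCGATTCCccgacgggga
Dhx37 member 4, chr5:125406056-125406085, reverse strand: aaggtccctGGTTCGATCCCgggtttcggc
Dhx37 member 6, chr5:125409017-125409046, reverse strand: ggagaccggGGTTCGATTCCccgacgggga

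Most copies differ outside the B box, while member 6 near Ctc1 and members 3 and 6 near Dhx37 are the same over all 30 bases. Of 22 B-box matches, 21 touched a footprint in each library, where 40.5% and 43.9% of all windows of that length in the tRNA members did. The tRNA members had a mean of 4.04 and 4.50 footprints, and the other 423 members 2.54 and 3.29. Their median GC content was 46.7%, below the 53.6% of the other members.

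Regions on tRNA genes were high, and lower in replicate 2 than in replicate 1. Their median signal was 2.66 in replicate 1 and 1.69 in replicate 2, and that of the other members 0.894 and 1.01. Near Dhx37, member 4 had 4.56 and 1.93, member 6 had 2.84 and 1.48, and member 3 had 2.66 and 1.65. Near Ctc1 the 7 tRNA members ran from 1.95 to 4.04 in replicate 1 and from 1.00 to 2.93 in replicate 2. Member 1 near Ctc1, the only one there with no tRNA gene, had 3.78 and 4.07.

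Of the 26, 25 were lower in replicate 2 after centring. The exception was member 1 near Olfr1423, with 1.04 and 1.12. High regions were lower in replicate 2 in general: of 4037 distal regions without a tRNA gene, with a mean signal between the quartiles of the tRNA members (1.68 and 2.65), 67.2% were lower, with a median ratio of -0.29. Neighbours without a tRNA gene in the same 5 chains had a median ratio of -0.28 (11 members), and near Dhx37 all 3 of them were lower as well. The median centred log2 ratio was -0.59, from -1.27 to 0.07, and that of the other 423 members was 0.03, with 203 of them (48.0%) lower in replicate 2. The 135 distal regions on tRNA genes outside long chains, which the rule did not select, had a median of -0.69, and 129 were lower. The part of signal height in the result was not tested further. With 1 library per animal, a difference between the mice and one between the libraries cannot be told apart.

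**Figure D4:**
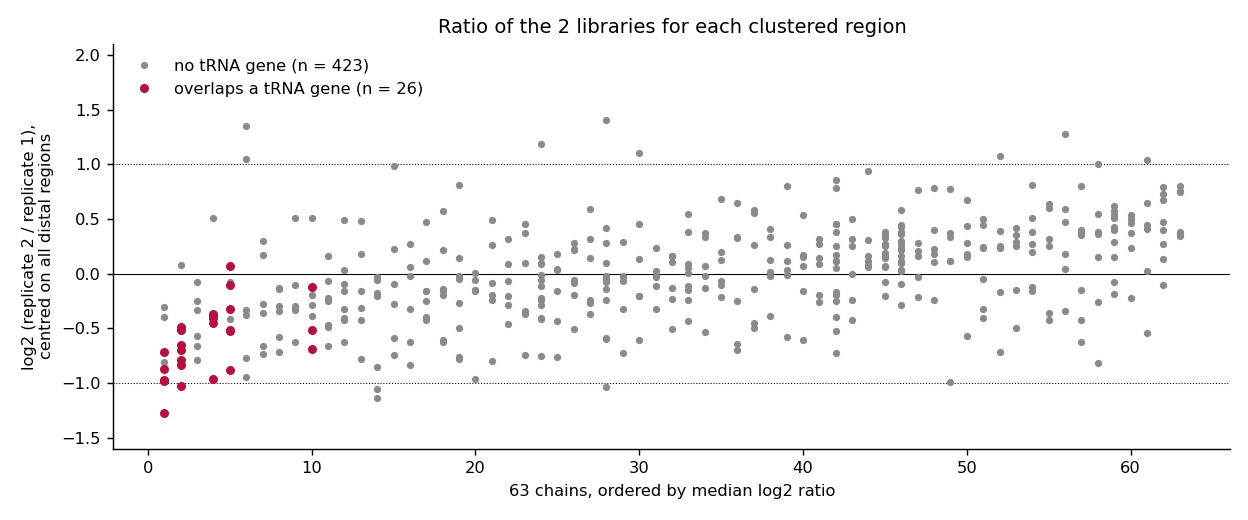
Centred log2 ratio of replicate 2 over replicate 1 for each of the 449 members (points), in 63 chains ordered by their median; dotted lines mark a 2-fold difference. The 26 members on tRNA genes (red) lie in 5 chains among the 10 with the lowest medians, and 25 of them are below 0.

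A set of 21 motifs was searched on both strands as exact letters, and a match is a description of the sequence. Members held the SP/KLF motif GGGGCGGGG in 4.45%, against 1.47% of all distal regions, the ETS motif CCGGAAG in 3.79% against 1.73%, the cyclic AMP response element TGACGTCA in 1.78% against 0.533%, and the E-box CAGGTG in 22.9% against 16.0%. They held the AP-1 motif TGANTCA in 7.80% against 12.2%, the short nuclear factor I motif TTGGCA in 14.3% against 22.3%, and the E-box CAGATG in 24.1% against 28.3%. GC content, which was higher in members, goes with several of these letters, and its part in the result was not tested. These shares are per region, and members are wider.

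The CTCF core was searched as CCANNAGNNGGC. It occurred in 50 members (11.1%), against 16.1% of all distal regions, although clustered regions are wider. The matches lay in 35 chains, at most 3 in a chain, near Edn2. Of the 50, 39 touched a footprint in replicate 1 and 43 in replicate 2, where 21.1% and 28.2% of all windows of 12 bases in members did. No member of the Firre chain held these exact letters. The search allowed no mismatch, so sites that differ from the letters were not counted, and their presence in Firre was not tested. The RFX motif GTTGCCATG was present in 2.45% of members and 2.03% of all distal regions, with 3 members in the Rasgef1a chain. Per kb it was no more frequent in members, at 0.0876 matches against 0.0886 in single regions.

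The EGR motif GCGTGGGCG, bound by activity-regulated zinc finger proteins, occurred in 2 members, 0.445% against 0.244% of all distal regions, and both matches touched a footprint in both libraries. The other motifs found at most 3 times gave 0 of 3 MEF2 matches in replicate 1 and 1 in replicate 2, 0 of 2 SOX matches in both, 1 of 2 RORE matches in both, and the 1 LHX2-type match in replicate 2 alone. These counts are too small to set the motifs apart. Member 5 near Stac3 had signals of 3.32 and 4.22, and member 4 in Srrm4 had 0.593 and 1.06. They are shown with the motif in capitals.
Stac3 member 5, chr10:127511641-127511880, forward strand: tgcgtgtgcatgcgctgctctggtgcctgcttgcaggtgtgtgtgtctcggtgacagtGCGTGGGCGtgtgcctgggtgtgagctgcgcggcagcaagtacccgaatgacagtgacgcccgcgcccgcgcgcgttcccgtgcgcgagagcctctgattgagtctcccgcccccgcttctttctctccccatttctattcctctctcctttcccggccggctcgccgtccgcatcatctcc
Srrm4 member 4, chr5:116525421-116525620, forward strand: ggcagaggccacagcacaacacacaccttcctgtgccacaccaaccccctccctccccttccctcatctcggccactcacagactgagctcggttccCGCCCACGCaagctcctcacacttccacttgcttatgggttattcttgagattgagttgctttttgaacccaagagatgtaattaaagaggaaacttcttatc

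**Figure D5:**
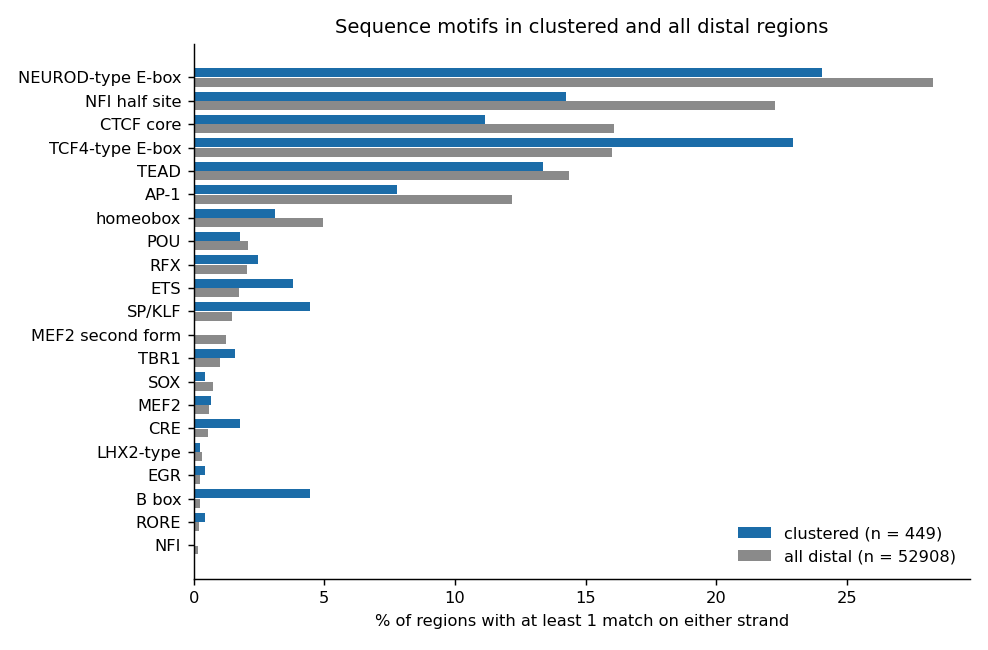
Percent of clustered (blue, n = 449) and all distal (grey, n = 52908) regions with at least 1 match on either strand to each motif; a motif found in neither class is left out. SP/KLF, ETS, cyclic AMP response element, CAGGTG and B box matches are more frequent in clustered regions, and AP-1, short nuclear factor I and CTCF core matches less frequent.

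The 18 gene lists held 236 genes for neuronal, glial, vascular and other tissue functions. A chain midpoint in the gene or within 50 kb of a TSS was found for 2 of 236 (0.847%), next to 114 of 21911 protein-coding genes (0.520%), and a count of 2 does not set the lists apart from that background. Nfic was among them, through its own chain of 13. None of the 12 pan-neuronal, 15 glutamatergic, 16 interneuron, 13 astrocyte, 13 oligodendrocyte, 13 activity-regulated or 15 synaptic genes had one. Mef2c, a transcription factor gene of the glutamatergic list, was the nearest protein-coding gene of a chain of 6 at chr13:83713641-83718840, 63358 bp from its TSS and thus outside the window; it is named after its values were seen. Of its spacer DNA, 18.3% and 63.5% lay in low-FDR segments. Its median signals were 0.532 and 0.495, and its highest member had 4.32 and 3.27.

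Repeated sequence was present in more members than in other regions. In 20 members (4.45%) over 50% of the region was made of 31-base stretches with a second copy in the assembly, next to 0.790% of single regions. Of the 20, 13 were in Mid1, where copies on chromosome Y may count, 3 in Firre, 2 near Ezh2 and 2 near Sfi1. RefSeq enhancers overlapped 4 members (0.891%), 2 near Bahcc1 and 2 near Trmt61a, next to 0.843% of regions in chains of 2 to 5 and 0.535% of all distal regions.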

How the data were processed

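The data are 2 DNase-seq libraries of mouse left cerebral cortex. Per the labels and deposited notes, peaks, low-FDR cleavage segments and footprints were made by the authors separately from each library's mm10 alignments. No aligner or caller is named there. The deposited peak signal is a height with no stated unit, and its depth is unknown. The deposited false discovery rates (q-values) of the cleavage segments were at most 0.05. The deposited footprints carry the constant 0.01 as their other value, so only their positions were used.

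From these, peaks of the larger list of each library were merged where they overlapped by at least 1 bp, and the highest peak gave a region's signal. TSSs and genes came from GENCODE M21, and sequence, tRNA genes and enhancers from RefSeq GRCm38.p6. A footprint belonged to a region by its midpoint. Low-FDR shares used DNA 250 to 1500 bp from midpoints, outside all peaks. Analyses ran in Python 3.11.15 (Numba 0.67.0, pandas 2.3.3, NumPy 2.4.6, SciPy 1.17.1, figures with Matplotlib 3.10.9), and the functions were tested on simulated data.

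With 2 libraries in 1 group no test was run. The members, gene lists and motifs were chosen with earlier results of these data known. Chains named were the 15 with the most members, the 3 longest, the 3 highest and 3 lowest by median ratio and the 3 highest by signal; the gene is the protein-coding gene holding the chain's midpoint, else the nearest. Other chains or genes were named after their values were seen. A further list gene with a chain is not reported here. Sequences named by the rule are those of the highest member of the 5 largest chains and of members with a motif found at most 3 times; of the latter only the EGR pair is printed, for length. Alternatives were other peak lists, chaining distances, comparison regions, repeats and single libraries.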

Additional observations from a re-analysis of the deposited data

How the results depend on the processing

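Of 87 values under 13 alternatives, 39 stayed within a set limit, 46 moved beyond it and 2 reversed. The limit was the SD between libraries, but the 95% interval over regions for the intron difference, and 1.5 times for counts and for the correlation of the library ratio. Touching regions joined and the omission of tRNA and repeat chains were chosen after seeing the data. With the stricter peak list members fell from 449 to 128, midpoints at most 2.5 kb apart gave 137 and at most 10 kb apart 1406, the omission of regions over 50% repeated gave 422, and a single library gave 1052 to 7411. The log2 difference in signal (0.60) was 0.55 with the stricter list, 0.51 against all distal regions outside long chains, 0.50 without the 7 chains of tRNA genes or repeated sequence and 0.13 to 0.49 on a single library. The difference in footprints (0.65) was 0.254 with the stricter list, 0.241 within bins of signal and 0.262 to 0.391 on a single library. Per 100 bp, another unit held to the same limit, it was 0.000786. That is a mean of opposite signs: 0.862 in members against 0.776 in single regions in replicate 1, and 1.10 against 1.18 in replicate 2. The intron difference of -4.67 percentage points was 6.07 with the stricter list and 1.43 at 10 kb, both of opposite sign, and -30.2 at 2.5 kb. The cause was not tested.

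The GC difference (4.58 points) was 2.86 with the stricter list, 4.41 with the same number of peaks in each library, 5.32 at 2.5 kb, 5.01 at 10 kb, 3.83 against all distal regions outside long chains, 5.34 without tRNA and repeat chains and 3.5 to 3.88 on a single library. The ratio of low-FDR spacer shares (14.0) was 25.3 at 2.5 kb, 6.04 at 10 kb and 11.3 to 22.8 on a single library. Within its wide spread between libraries it was still lower by over 1.5 times with equal peak numbers (7.75), against all distal regions outside long chains (7.29) and with the stricter list (8.80). The intraclass correlation of signal (0.393) was 0.560 with the stricter list, 0.228 with equal peak numbers, 0.552 at 2.5 kb, 0.309 at 10 kb, 0.450 without repeated regions, 0.369 with touching regions joined, 0.411 without tRNA and repeat chains and 0.365 to 0.515 on a single library. That of the library ratio (0.19) was 0.36, 0.41 and 0.12 with the stricter list, 2.5 kb and 10 kb, and fell to 0.10 (0.097) without tRNA and repeat chains. List genes with a chain (2) were 1 with equal peak numbers, at 2.5 kb and without tRNA and repeat chains, 7 at 10 kb and 7 to 39 on a single library. No paired analysis was possible because there is only 1 group. Depth is unknown, so no interval for a single signal can be given.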
